A study of Mus musculus with 4 samples.

Results

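The Kruppel-like factors described here are the products of 9 genes: Klf2, Klf3, Klf4, Klf5, Klf6, Klf7, Klf10, Klf13 and Klf15. Their probes were found by the RefSeq transcript that the array's design gives for each probe, and 13 of its 41174 different probes belonged to them. Klf2, Klf3, Klf6 and Klf15 had 2 probes each, and the other 5 genes had 1. All 13 probes were well above background in both colours of every array and none was saturated, so all 9 genes were among the 15523 genes tested. The arrays compared pancreas of Cyp11a1 knockout mouse embryos with pancreas of wild-type embryos, both of strain C57BL/6JNarl at stage E18.5. Cyp11a1 is the enzyme that starts steroid hormone synthesis from cholesterol. Each of 4 arrays held 1 knockout extract in red and 1 wild-type extract in green, so genotype and a dye effect of a single probe cannot be told apart. The labels call the arrays biological replicates. The number of embryos behind each extract was not stated, and the p-values measure the spread between these 4 arrays.

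Kruppel-like factors are transcription factors whose carboxy-terminal zinc fingers bind GC-rich and CACCC sequences in promoters, while their amino-terminal parts differ and set their partners. Klf2, Klf4, Klf5, Klf6 and Klf7 are mostly known as activators, Klf3 recruits the corepressor CtBP, and Klf10 and Klf13 recruit the corepressor Sin3. Several members are induced quickly by growth factors, stress or hormones, and their relative Klf9 is a well-known target of the glucocorticoid receptor.

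Of the 9 genes, 1 was lower and 0 were higher in knockout pancreas after loess normalisation, whereas 8 were called higher when each array was centred on its median instead. The gene that fell, by both routes, was Klf6. A log2 ratio here is knockout over wild type on one array, below 0 where knockout was lower, and a gene was called when its limma p-value, adjusted over all genes, was under 0.05. Over all 15523 genes 14.6% were called, 9.45% higher and 5.11% lower, and the members' 1 of 9 is to be read against those shares. With median centring 61% of all genes were called higher and 15.8% lower, against 8 and 1 of the 9 members. The mean ratio was below 0 for 4 of the 9 members, against 45.4% of all genes. The ratio had the same sign on all 4 arrays for 4 of the 9 (Klf5, Klf6, Klf7 and Klf13), against 37.6% of all genes, and was below 0 on all 4 for Klf6 and Klf7, against 13.9%. The median ratio of the members was 0.0062 and that of all genes 0.013.

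The upstream sequences of Klf6, of Klf9, which also fell, and of Klf2, whose probes disagreed, are printed here with motifs marked. No marked motif stood in all of them. Each is the 250 bases before the gene's annotated start, 5′ to 3′, from RefSeq on GRCm38.p6, at chr13:5861239-5861488 for Klf6, chr19:23140976-23141225 for Klf9 and chr8:72318812-72319061 for Klf2, all on the plus strand. Capitals mark, on either strand, the GC box GGGCGG that Sp and Kruppel-like proteins bind, the E-box CACGTG, the CCAAT box, and the Mef2 core, which is CTA and TAG with 4 bases between them.
Klf6: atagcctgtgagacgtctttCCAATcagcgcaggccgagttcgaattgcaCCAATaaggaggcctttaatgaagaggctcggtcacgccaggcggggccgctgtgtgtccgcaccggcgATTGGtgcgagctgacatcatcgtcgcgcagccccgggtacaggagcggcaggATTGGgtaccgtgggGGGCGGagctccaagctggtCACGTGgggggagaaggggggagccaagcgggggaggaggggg
Klf9: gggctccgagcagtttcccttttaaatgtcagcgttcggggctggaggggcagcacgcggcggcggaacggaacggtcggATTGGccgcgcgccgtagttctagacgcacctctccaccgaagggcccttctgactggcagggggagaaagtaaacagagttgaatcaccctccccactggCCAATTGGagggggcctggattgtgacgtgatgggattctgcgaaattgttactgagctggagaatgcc
Klf2: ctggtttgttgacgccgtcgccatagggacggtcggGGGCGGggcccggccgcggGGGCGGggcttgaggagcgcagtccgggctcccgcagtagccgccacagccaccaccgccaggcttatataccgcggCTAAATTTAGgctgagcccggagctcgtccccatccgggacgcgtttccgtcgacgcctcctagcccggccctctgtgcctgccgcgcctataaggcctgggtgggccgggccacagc

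Such sequences were held for 7 of the 9 members and were not used here for Klf5 and Klf10. The GC box stood in all 7 members and in 32.7% of all 32851 windows of this length, and was not found in that of Klf9. Klf6 held 1 GC box at bases 63 to 58 before the start, 1 E-box at 43 to 38 and 4 CCAAT boxes. The E-box stood in 3 of the 7 members (Klf4, Klf6 and Klf15) and in 6.02% of all windows. The CCAAT box was in 3 of the 7 and in 33.8% of all windows. CACCC, not marked here, was in 5 of the 7 but not in Klf6, and in 52% of all windows. Among the 7 members, the window of Klf2 was the one with the Mef2 core, at bases 118 to 109, against 3.2% of all windows. The glucocorticoid receptor half-site AGAACA was in 0 of 7 members and in 16.1% of all windows, and was not found in that of Klf9 either. Members' windows held 59.2% (Klf7) to 78.4% (Klf3) G and C, against a median of 52.4% over all windows. A match of letters is a description, not a measured binding site.

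Klf6 is a widely expressed activator that injury induces, known best from liver stellate cells. On its brighter probe (A_51_P451346) the normalised log2 intensity was 10.60, 10.94, 10.43 and 10.79 in wild type on arrays 1 to 4. In knockout it was 10.00, 10.17, 9.87 and 10.29. Every knockout value lay below every wild-type value, which held for 2.07% of all genes, and the groups did not overlap in either direction for 8.05%. The log2 ratios were -0.60, -0.77, -0.56 and -0.50, so that all 4 arrays gave a decrease of like size. The mean was -0.61 ± 0.055 (SE, n = 4 arrays, 95% interval -0.74 to -0.48), a 1.52-fold decrease that passed the test (limma adjusted p = 0.0021). Klf6 was at rank 153 of all genes by the size of its ratio.

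The second Klf6 probe (A_51_P503162) gave ratios of -0.34, -0.62, -0.18 and -0.21. They were below 0 on every array, but the levels overlapped, at 8.46 to 9.89 in wild type and 8.28 to 9.30 in knockout. The mean of -0.34 ± 0.076 passed with each probe treated as its own unit (limma adjusted p = 0.029), but not without replicate 1 (adjusted p = 0.096), nor with the scanner software's processed signals (adjusted p = 0.066) or its log ratio column (0.071). With median centring, which put the median of all genes at 0.26, this probe was at -0.11 and did not pass (limma adjusted p = 0.179). Both probes thus put Klf6 lower and differed in size. The brighter minus the second probe was -0.27 ± 0.060 (limma adjusted p = 0.034 over 5307 genes with at least 2 tested probes, of which 5.71% passed). That difference did not pass without replicate 1, 3 or 4 (adjusted p = 0.090, 0.115 and 0.114), nor with the processed signals (0.117) or the log ratio column (0.112). With median centring it was -0.13 and did not pass either (limma adjusted p = 0.111).

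**Figure D1:**
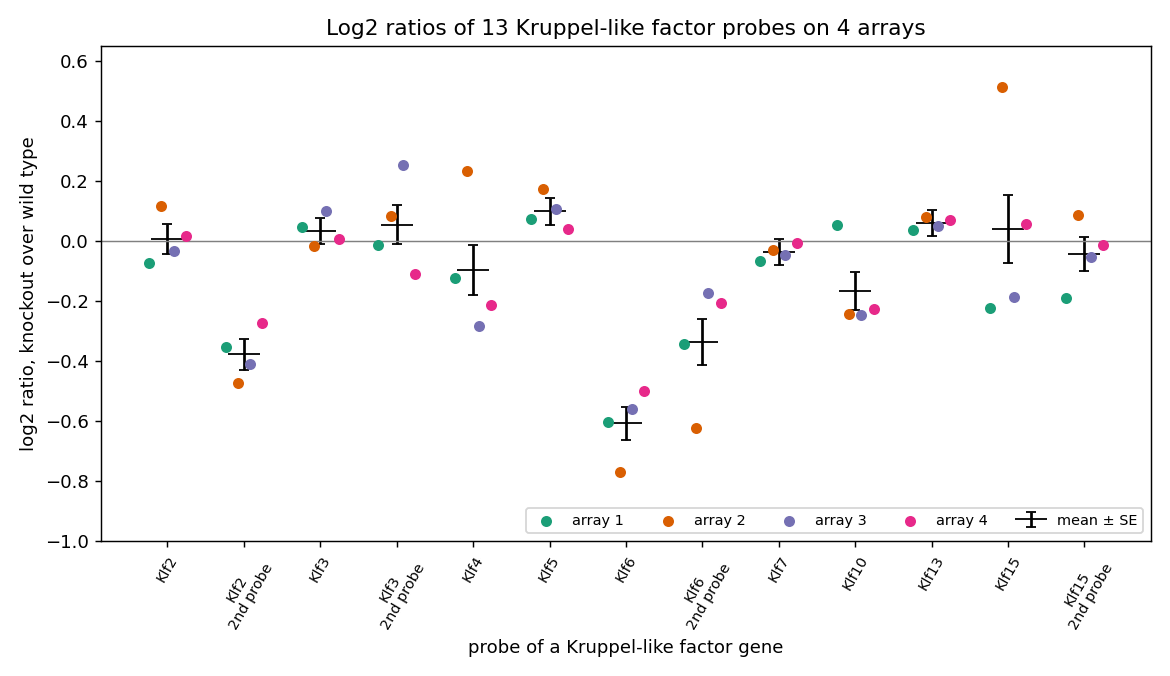
Log2 ratio of knockout over wild type after loess for each of the 13 probes, with 1 point per array and the mean ± SE as a bar. All 4 points of both Klf6 probes and of the second Klf2 probe lie at or below -0.175, whereas the means of the other 10 probes lie between -0.17 and 0.099.

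Klf2 is known from endothelium, where blood flow induces it, and from quiescent T cells. Its brighter probe (A_52_P442031) was at 12.32, 12.32, 12.32 and 12.25 in wild type and at 12.25, 12.44, 12.28 and 12.26 in knockout. The groups overlapped, and the ratios of -0.073, 0.12, -0.033 and 0.015 lay on both sides of 0. The mean was 0.0062 ± 0.049 (limma adjusted p = 0.948, 95% interval -0.11 to 0.12).

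The second Klf2 probe (A_51_P144264) differed from this. Its level was 8.99, 9.51, 9.16 and 9.41 in wild type and 8.64, 9.03, 8.75 and 9.14 in knockout, lower in knockout within each array while the groups overlapped. The ratios were -0.35, -0.48, -0.41 and -0.27, and their mean of -0.38 ± 0.051 passed with each probe as its own unit (limma adjusted p = 0.0046). It also passed with any 1 array left out (adjusted p between 0.012 and 0.024). With median centring, which put the median of all genes at 0.26, this probe was at -0.14 and did not pass (limma adjusted p = 0.056).

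The brighter minus the second Klf2 probe was 0.28, 0.59, 0.38 and 0.29 on the 4 arrays. The mean of 0.38 ± 0.067 passed (limma adjusted p = 0.014), and 97.8% of genes with at least 2 tested probes differed by less. With the processed signals the difference was 0.48 and did not pass (adjusted p = 0.058). The call for Klf2 therefore turned on the probe, and the mean of both probes was -0.19 ± 0.041 (limma adjusted p = 0.027). Which part of the transcript each probe binds was not stated, and a second transcript was not tested for.

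**Figure D2:**
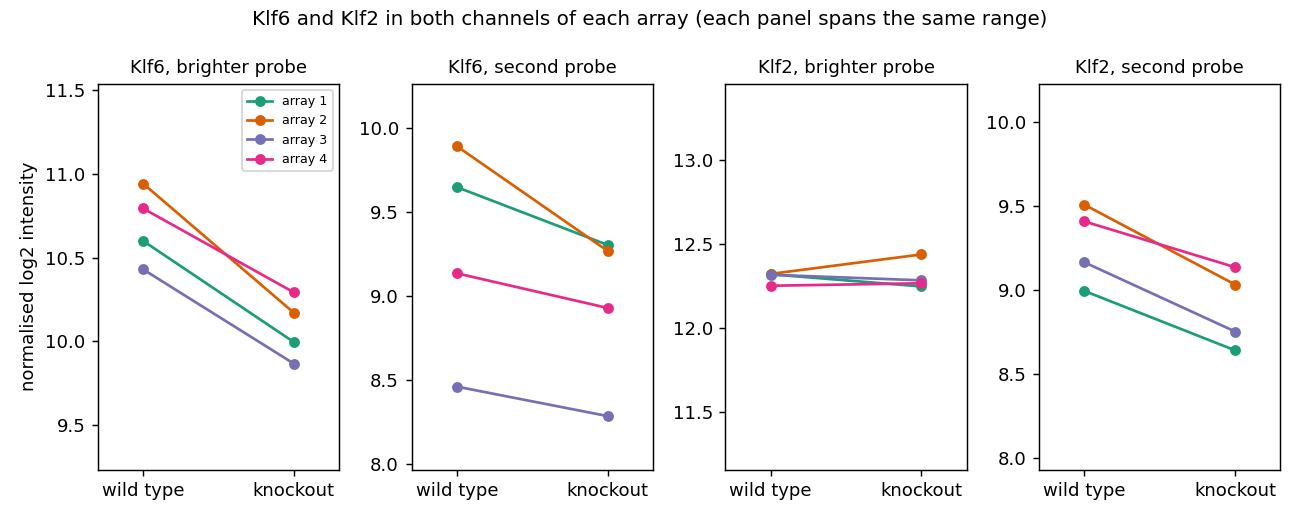
Normalised log2 intensity of both Klf6 probes and both Klf2 probes in wild type and knockout, with 1 line per array. All lines fall for both Klf6 probes and for the second Klf2 probe, and those of the brighter Klf2 probe lie between 12.25 and 12.44.

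The other activators did not pass after loess. Klf4, a factor of epithelial barrier differentiation and of reprogramming to pluripotency, was at 10.66 to 11.17 in wild type and at 10.70 to 10.96 in knockout, so that the groups overlapped. The wild-type extract of array 2 had the lowest of the 8 values. The ratios were -0.12, 0.23, -0.28 and -0.21, with a mean of -0.097 ± 0.083 (limma adjusted p = 0.471). Without replicate 2 the ratio was -0.21 and did not pass (adjusted p = 0.056).

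Klf5, which promotes proliferation of epithelial progenitors, was above 0 on every array, at 0.074, 0.17, 0.11 and 0.040. Its mean of 0.099 ± 0.045 did not pass (limma adjusted p = 0.188, 95% interval -0.0069 to 0.20). Klf7, a regulator of neuronal differentiation, was just below 0 on every array, at -0.067, -0.030, -0.048 and -0.0089. Its mean was -0.038 ± 0.043 (limma adjusted p = 0.586, 95% interval -0.14 to 0.061).

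Klf3, the member that works through CtBP, was near 0 on both probes after loess. The brighter probe (A_51_P492640) gave 0.045, -0.017, 0.098 and 0.0048, with a mean of 0.033 ± 0.045 (limma adjusted p = 0.664). The second probe (A_52_P462392) gave -0.014, 0.084, 0.25 and -0.11, with a mean of 0.054 ± 0.064. The probes differed by -0.021 ± 0.064, which did not pass (limma adjusted p = 0.880). With median centring the brighter probe was at 0.39 and the second at 0.070, and their difference of 0.32 ± 0.070 passed (limma adjusted p = 0.0069).

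Of the Sin3-recruiting members, Klf10 is an early gene of the transforming growth factor beta response. Its ratios were 0.052, -0.25, -0.25 and -0.23, so that arrays 2, 3 and 4 lay close together and array 1 stood apart. The mean of -0.17 ± 0.062 did not pass (limma adjusted p = 0.115, 95% interval -0.31 to -0.023), whereas without replicate 1 the ratio was -0.24 and passed (adjusted p = 0.044). Array 1 also had the lowest Klf10 level in both groups, at 9.92 in wild type, against 10.31 to 10.63 on the other arrays, and at 9.97 in knockout, against 10.06 to 10.38. Klf13, which acts in T cells and heart, gave 0.036, 0.081, 0.050 and 0.069, above 0 on every array. Its mean of 0.059 ± 0.042 did not pass (limma adjusted p = 0.384).

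Klf15, a regulator of amino acid and glucose use that glucocorticoids induce in muscle, varied most between arrays among the members. Its brighter probe (A_52_P64383) was at 9.85, 9.29, 9.77 and 9.75 in wild type and 9.63, 9.80, 9.58 and 9.80 in knockout. As with Klf4, the wild-type extract of array 2 was the lowest of the 8. The ratios were -0.22, 0.51, -0.19 and 0.056, with a mean of 0.040 ± 0.11 (limma adjusted p = 0.848, 95% interval -0.23 to 0.31). Without replicate 2 the ratio was -0.12 (adjusted p = 0.294). The second probe (A_51_P299339) gave -0.19, 0.086, -0.055 and -0.015, with a mean of -0.044 ± 0.056, and did not differ from the first beyond the threshold (0.084 ± 0.087, limma adjusted p = 0.607).

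Of the 17 other Klf and Sp genes 15 were measured, and 1 was lower, 0 were higher and 14 did not pass, with a median of 0.017. With median centring 4 were higher and 3 lower. The one that fell was Klf9, a repressor, at -0.44, -0.76, -0.46 and -0.61 on the 4 arrays (mean -0.57 ± 0.062, limma adjusted p = 0.0026). Its second probe gave -1.34, -1.30, -1.33 and -1.02. The brighter minus the second Klf9 probe was 0.68 ± 0.087 (limma adjusted p = 0.0039), and 99.5% of genes with at least 2 tested probes differed by less. Klf12, which also binds CtBP, was at 0.13 ± 0.047 and the GC box factor Sp3 at -0.13 ± 0.050, and neither passed (limma adjusted p = 0.104 and 0.121). Klf6 and Klf9 were thus the genes of the wider family called after loess. Counts for this list and those below are to be read against all genes. Of all genes 9.45% were called higher and 5.11% lower after loess, and 61% and 15.8% with median centring.

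Over the 4 ratios, the tested genes closest to Klf6 were Fkbp5 (root mean square difference 0.073), Zfp385c (0.086) and Vcan (0.099), followed by Klf9 (0.11). Each gene was compared on its brightest probe, and the second probes of Klf6 and Klf9 had means of -0.34 and -1.25. Fkbp5, which encodes a chaperone partner of steroid receptors, was at -0.59, -0.74, -0.48 and -0.38 after loess, and its 2 other probes had means of -0.71 and -0.64. With median centring Fkbp5 was at -0.15 and Zfp385c at -0.096, while the median of all genes was 0.26. Neither gene then passed (limma adjusted p = 0.073 and 0.236). Vcan, a matrix proteoglycan, was at -0.68, -0.85, -0.63 and -0.35, and its 3 other probes had means of -0.42, -0.28 and -0.059. The arrays share their extracts and dyes between genes, and the order is a description over 4 points.

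**Figure D3:**
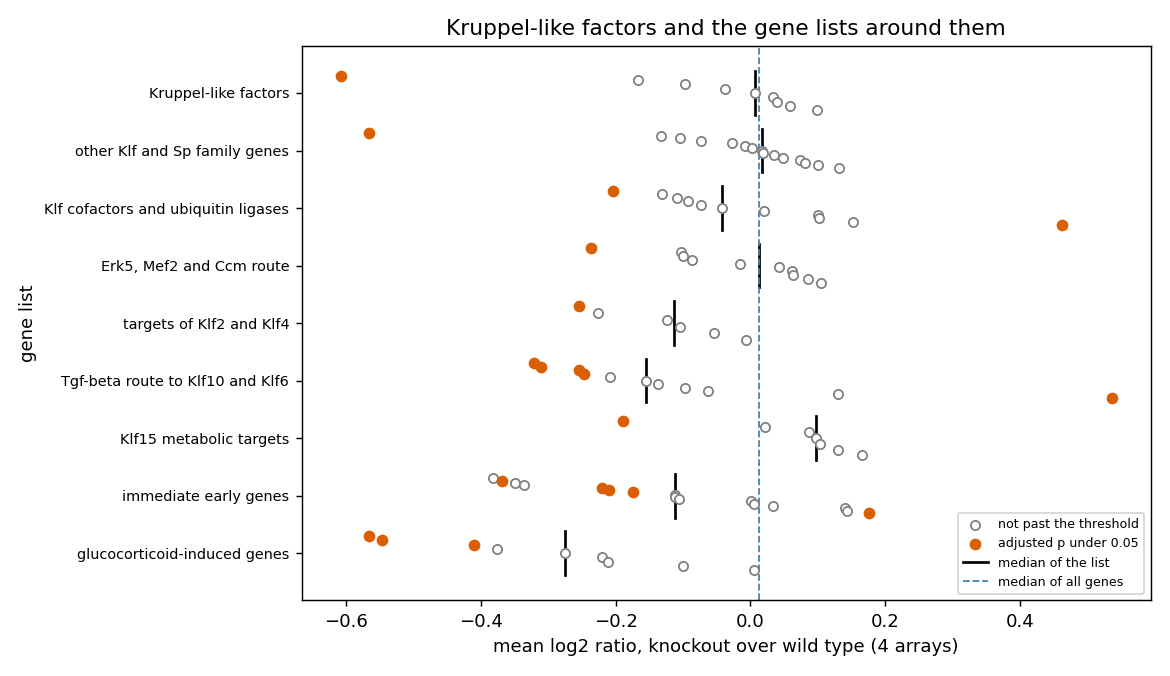
Mean log2 ratio after loess of each measured gene in the family and in 8 lists around it, filled where the limma adjusted p was under 0.05, with list medians and the median of all genes. Klf6 and Klf9 lie at -0.61 and -0.57, and the other measured Klf and Sp genes between -0.17 and 0.13.

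Of 11 measured cofactors and ubiquitin ligases of the family, 1 was higher, 1 was lower and 9 did not pass, with a median of -0.042. With median centring all 11 were higher, against 61% of all genes. Ctbp2, a corepressor that Klf3 recruits, rose by 0.46 ± 0.071 (limma adjusted p = 0.0075), at 0.36, 0.74, 0.36 and 0.39 on the arrays, and its other probe had a mean of 0.50. Crebbp, an acetyltransferase, was at -0.20 ± 0.055 after loess (limma adjusted p = 0.046) and at 0.29 with median centring, and it did not pass with any 1 array left out.

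Transforming growth factor beta signalling induces Klf10 and Klf6 in many cells. Of the 11 genes of its route 4 were lower, against 5.11% of all genes, 1 was higher and 6 did not pass. The median was -0.16. Median centring called 0 lower and 4 higher, against 15.8% and 61% of all genes. Relative to the median of all genes the list's median was -0.17 after loess and -0.18 with median centring. After loess the count called lower was 2 without replicate 1 and 1 without replicate 4. In those fits 346 and 411 of all 15523 genes were lower, against 793 with all 4 arrays. Smad3, a signal transducer, rose by 0.54 ± 0.049 (limma adjusted p = 0.0021), and its other probe had a mean of 0.35. The ligand gene Tgfb3 (-0.31 ± 0.051, limma adjusted p = 0.0093) and the receptor gene Tgfbr1 (-0.32 ± 0.059, adjusted p = 0.014, and 0.054 without replicate 4) were lower after loess, and were at 0.11 and 0.18 with median centring. The other Tgfbr1 probe was at -0.19 and did not pass (limma adjusted p = 0.056). Tgfb1 (-0.26 ± 0.051, limma adjusted p = 0.018) did not pass without replicate 1 or 4, and the coreceptor gene Tgfbr3 (-0.25 ± 0.066, adjusted p = 0.044) did not pass with any 1 array left out.

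Mef2 proteins, driven by the kinase Erk5, switch on Klf2 and Klf4 in endothelium. Of 10 genes of that route 1 was lower and 9 did not pass, with a median of 0.013. Median centring called 7 higher and 1 lower, against 61% and 15.8% of all genes. The one called after loess was Heg1, a receptor of the cerebral cavernous malformation complex that restrains the route. It was at -0.24 ± 0.047 (limma adjusted p = 0.018, and 0.061 and 0.074 without replicate 1 and 4). The other Heg1 probe was at -0.13 and did not pass (limma adjusted p = 0.186). Of 6 measured targets of Klf2 and Klf4, 1 was lower and 5 did not pass, with a median of -0.11, and median centring called 2 lower and 1 higher. Thbd, which encodes thrombomodulin, was at -0.25 ± 0.059 (limma adjusted p = 0.029) but at 0.12 with median centring, and it did not pass without replicate 1, 2 or 3. S1pr1, a sphingosine phosphate receptor, was at -0.23 ± 0.069 and did not pass (limma adjusted p = 0.067), although it did without replicate 4 (adjusted p = 0.034).

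Beside the Klf2 values stand those of endothelial markers. Median centring called 10 of the 12 markers higher and 1 lower, against 61% and 15.8% of all genes. After loess 1 of the 12 was lower (Tek, -0.29 ± 0.065, limma adjusted p = 0.026) and 11 did not pass, with a median of -0.067. Tek did not pass without replicate 3 or 4 (limma adjusted p = 0.082 and 0.089), which left 0 markers lower, and 2 were lower without replicate 2. Without replicate 2, 3 and 4, 637, 355 and 411 of all 15523 genes were lower, against 793 with all 4 arrays. The summed normalised intensity of the 12 markers ranged from 42271 to 49885 in knockout and from 48201 to 55071 in wild type. Most of that sum came from 1 marker, Esam, whose mean log2 intensity was 15.18, against 11.19 for the next brightest, Cdh5. Esam itself was at -0.13 ± 0.049 after loess and did not pass (limma adjusted p = 0.119). In whole-organ RNA fewer cells of a type and less RNA per cell cannot be told apart, and the part of endothelial cells in the Klf2 values was not tested.

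Of 7 measured metabolic targets of Klf15, 1 was lower and 6 did not pass, with a median of 0.098. Median centring called all 7 higher, against 61% of all genes. The one called after loess was Gpt2, an alanine transaminase, at -0.19 ± 0.045 (limma adjusted p = 0.031). Gpt2 did not pass without replicate 1, 3 or 4 and was at 0.13 with median centring. Several members belong to the immediate early genes, and of 16 others of that class 4 were lower, 1 was higher and 11 did not pass. Median centring called 7 lower and 5 higher, against 15.8% and 61% of all genes. After loess the count called lower was 0 without replicate 1, 3 without replicate 2, and 1 without replicate 3 or 4. In each of these fits 0 were higher. Calls over all 15523 genes changed too. With all 4 arrays 793 were lower, and without replicates 1 to 4 these were 346, 637, 355 and 411. Those called higher were 1467 with all arrays, and 775, 997, 612 and 644 without replicates 1 to 4. Jun, a subunit of AP-1, was at -0.22 ± 0.042 (limma adjusted p = 0.016), did not pass without replicate 1, 3 or 4, and was at -0.43 with median centring. Of 9 measured genes that respond to glucocorticoids 3 were lower (Klf9, Fkbp5 and Sgk1) and 6 did not pass, with a median of -0.28. Median centring called 2 lower and 1 higher, and the median of the list was then 0.0011. Relative to the median of all genes the list's median was -0.29 after loess and -0.25 with median centring. After loess without replicate 2, 5 of the 9 were lower, against 637 of all 15523 genes, and the median of the list was -0.44.

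The tissue label was checked on its defining markers, and all 10 acinar and all 11 endocrine markers were above background in each extract. Cyp11a1 was at -0.19, -0.40, 0.013 and -0.072 and did not pass (limma adjusted p = 0.164), and the position of its probe relative to the deletion was not stated, so it does not check the genotypes. The 2 extracts of an array also differed in other ways. The Xist ratio was -3.91, -0.28, -4.22 and 3.46. Its log2 intensity on arrays 1 to 4 was 10.23, 6.49, 10.15 and 7.42 in wild type and 6.32, 6.21, 5.93 and 10.88 in knockout. Wild type was thus far higher on arrays 1 and 3, and knockout on array 4. The median ratio of 10 hepatocyte markers was 1.41, 0.77, -0.89 and 0.46. The summed normalised intensity of the 10 acinar markers was 520736 to 688759 in knockout and 453579 to 518564 in wild type. Of these markers 4 were higher and 3 lower after loess, against 9.45% and 5.11% of all genes. With median centring 7 were higher and 1 lower, against 61% and 15.8%. Whether any of these differences bears on the Klf6 and Klf2 ratios was not tested. Median raw signals were 304 to 467 in red and 163 to 224 in green, and ratios of all genes correlated between arrays at 0.31 to 0.60.

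Loess removes differences between the dyes that depend on brightness, and which members are called rests on it. With median centring the median of all genes was 0.26, 11921 genes were called and 9471 of them were higher. Klf6 was then at -0.24 (limma adjusted p = 0.0060), which is -0.49 relative to that median. Klf2 was at 0.48, Klf7 at 0.46 and Klf5 at 0.45, or 0.22, 0.20 and 0.20 relative to it. Klf10 and Klf13 were called higher at 0.20 and 0.22, and were at -0.059 and -0.033 relative to the median of all genes.

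**Figure D4:**
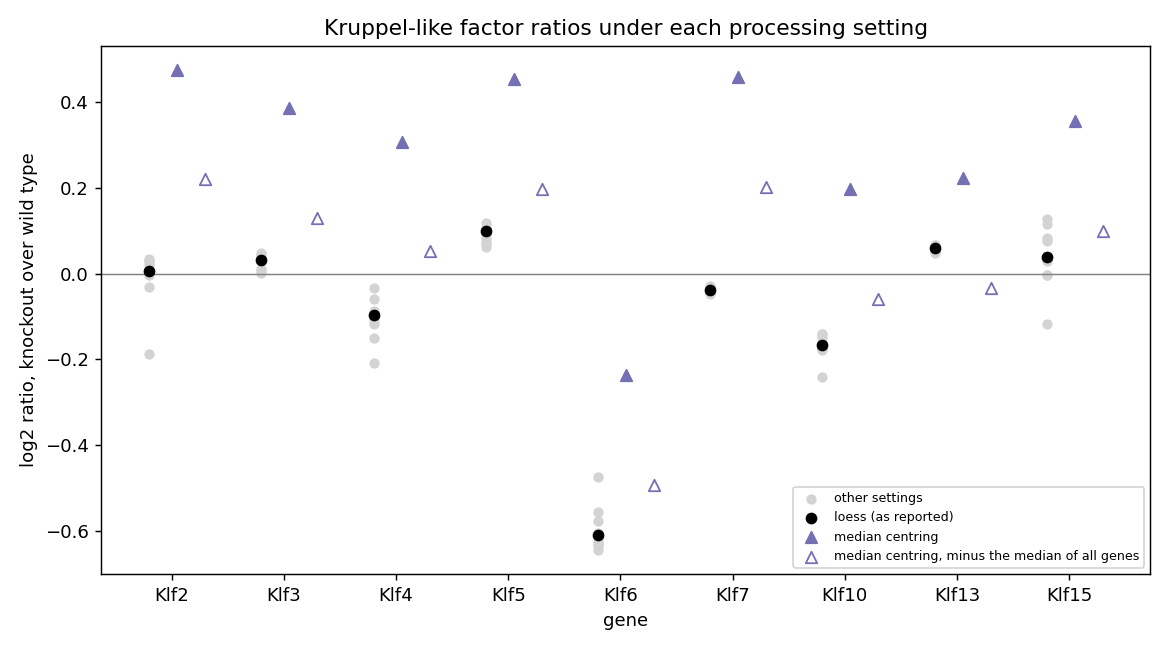
Log2 ratio of each of the 9 genes after loess, with median centring, with median centring relative to the median of all genes, and under 14 other settings. Klf6 lies between -0.64 and -0.24 in all of them, and the other 8 genes lie above 0 with median centring.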

How the data were processed

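Whole pancreas RNA was hybridised to 4 two-colour Agilent arrays, knockout in red and wild type in green on each. The authors deposited the scanner output with median intensity and background per spot, processed intensity, and a log10 ratio of red over green, for which the submitters' processing notes name version 10.5.1.1 of Agilent's Feature Extraction. From these deposited intensities, log2 ratios were computed here with limma 3.58.1 in R 4.3.3: normexp (offset 50) on median signals, then loess within arrays with control and non-uniform spots at weight 0. The normalised log2 intensities of each extract, and the marker sums, were taken after 1 further step. It made the distribution of mean intensity alike between arrays (limma's Aquantile) and left the ratios unchanged. A probe was tested when well above background on at least 3 of 4 arrays in red or in green, and a gene was represented by its brightest tested probe. The log2 ratio was tested against 0 over all genes (two-sided, Benjamini-Hochberg, threshold 0.05), and the code was tested on simulated data. The design has 1 knockout and 1 wild-type extract per array, which are paired inside the ratio. Mean intensity was used to rank a gene's probes and to name the brightest endothelial markers, and intensities of marker genes were summed. Intensities were not otherwise compared between probes.

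The members and gene lists were chosen with earlier results of these data known. Named were all members with every probe, Klf9, up to 4 genes of smallest p per list, markers past the threshold, Xist, and the 3 genes closest to Klf6. Alternatives were other background correction and signals, the log ratio column, median centring, scaling between arrays, other probe filters, the mean of a gene's probes, each probe alone, no array block, other variance settings, array weights, and leaving out each array. Promoter windows came from RefSeq on GRCm38.p6, and motifs were searched on both strands.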

Additional observations from a re-analysis of the deposited data

Results flagged for a closer look

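In 39 groups of 4 values for the members' probes (ratios and levels by array), 2 had 1 value far from the other 3, by Dixon's test of the gap to the nearest value over the group's range. Chance alone gives such a value in about 5% of groups. The Klf10 ratio on array 1 was 0.052, while those on the other arrays lay between -0.25 and -0.23. The wild-type log2 intensity of the brighter Klf2 probe was 12.25 on array 4, while it was 12.32 on the other 3 arrays.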

How the results depend on the processing

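Klf6 was lower and passed under every alternative with a test but one: with no replicate block, that is with the pairing of extracts on an array ignored, it was at -0.61 with an adjusted p of 0.085, and 107 genes in place of 2260 were called. With each array left out Klf6 ranged from -0.64 to -0.56 (adjusted p between 0.0041 and 0.011), and all genes called ranged from 967 to 1634. The count of members called lower was 1, and became 2 with the mean of a gene's probes (Klf2 then at -0.19), 2 with every probe on its own, 0 with no replicate block, and 1 to 2 with an array left out. The count called higher was 0, and became 8 with median centring, which called 11921 genes. Median centring also turned Klf4 (0.31), Klf7 (0.46), Klf10 (0.20), the second Klf15 probe (0.19), Sp3 (0.31), Crebbp (0.29), Thbd (0.12), Tgfb3 (0.11), Tgfbr1 (0.18) and Gpt2 (0.13) above 0. It leaves the brightness-dependent difference between the dyes in the ratios, and it moved the median of all genes from 0.013 to 0.26. The reading relative to that median and the difference between a gene's probes were chosen after seeing the data. Only 4 arrays of 1 dye orientation limit the precision.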
